A study of Mus musculus with 8 samples.

Results

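Rab GTPases are small membrane-associated GTPases that direct vesicle transport. The set described here holds every row of the deposited table whose symbol is Rab followed by digits and at most 1 letter. This rule, which uses names and no measured value, found 55 of the 19688 genes in the table. The study profiled RNA of mouse blastocysts from 3 groups. In 3 libraries the blastocysts were vitrified and thawed in media that contained melatonin at 1e-10 M, in 3 libraries they were vitrified without melatonin, and in 2 libraries they were fresh and had not been vitrified. No strain, genotype, age or number of embryos per library is given in the sources used here, so separate libraries may share embryos, and p-values then measure only the spread between these libraries. The sources disagree on the library method: the series text names Smart-seq2, made for very small inputs, whereas the sample protocol describes TRIzol extraction from cell lines and stranded libraries of poly(A) RNA.

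A Rab is inactive when bound to GDP and active when bound to GTP. Exchange factors load GTP, GTPase activating proteins end the active state, and prenyl groups added to the carboxyl end anchor the protein in a membrane. Active Rabs recruit effectors such as tethers and motor adaptors, and each Rab marks particular compartments: Rab1 acts between the endoplasmic reticulum and the Golgi, Rab5 on early endosomes, Rab7 on late endosomes and lysosomes, Rab11 on recycling endosomes, and Rab3 and Rab27 on regulated secretory vesicles. In the blastocyst the outer trophectoderm is a polarised epithelium that surrounds a fluid-filled cavity, and Rab11, Rab25 and Rab17 are known from epithelial cells for traffic to and from the apical membrane.

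Levels are given as FPKM, that is, fragments scaled by transcript length and library size, as the authors computed them. The depth estimated from the spacing of the low values was between 5815000 fragments (fresh replicate 2) and 9996500 fragments (fresh replicate 1), and a gene of 2 kb at 1 FPKM was thus read from 11.6 to 20.0 fragments. The trophectoderm markers Krt8, Krt18, Cdx2, Gata3, Tfap2c and Elf5 were all above 5 FPKM in all 8 libraries. Elf5 was higher in the fresh libraries (16.2 and 15.8 FPKM) than in the other 6 (5.72 to 10.6 FPKM). Gata3 was lower in the fresh libraries (67.3 and 78.2 FPKM) than in the others (104 to 165 FPKM), and the remaining trophectoderm markers overlapped. The marker lists for cumulus cells, fibroblasts and blood had 1 gene each in the table, at no more than 0.344, 0.168 and 1.34 FPKM. The summed level of the 5 epiblast markers was 128 to 148 FPKM in melatonin libraries, 128 to 159 FPKM in vitrified libraries, and 21.3 and 71.0 FPKM in fresh libraries. Y-linked transcripts were at 0 in vitrified replicates 2 and 3 and summed to 20.9 to 36.8 FPKM in the other 6 libraries. In bulk RNA, fewer cells of a type and less RNA per cell cannot be told apart.

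The start regions of 6 members described below are shown as examples. Rab11a and Rab25 are the recycling and apical members, Rab5a the main endosomal one, Rab1b the main secretory one, and Rab17 and Rab20 are the epithelial and endocytic members discussed with the comparisons. Each line gives the 100 bases before the RefSeq start on GRCm38 (mm10), 5′ to 3′ on the strand of the gene, with CpG dinucleotides in capitals.
Rab11a, chr9:64737757-64737856, minus strand: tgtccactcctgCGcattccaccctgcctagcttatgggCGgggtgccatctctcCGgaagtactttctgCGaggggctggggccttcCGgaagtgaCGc
Rab25, chr3:88548280-88548379, minus strand: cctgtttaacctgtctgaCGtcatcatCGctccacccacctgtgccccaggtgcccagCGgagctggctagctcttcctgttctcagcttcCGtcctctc
Rab5a, chr17:53479134-53479233, plus strand: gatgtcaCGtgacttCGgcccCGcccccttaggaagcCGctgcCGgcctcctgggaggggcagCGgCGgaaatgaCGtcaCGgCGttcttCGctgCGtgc
Rab1b, chr19:5106997-5107096, minus strand: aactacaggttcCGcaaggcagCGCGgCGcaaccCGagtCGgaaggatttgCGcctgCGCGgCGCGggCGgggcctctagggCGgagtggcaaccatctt
Rab17, chr1:90967668-90967767, minus strand: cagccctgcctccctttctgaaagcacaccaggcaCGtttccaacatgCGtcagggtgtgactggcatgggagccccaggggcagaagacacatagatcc
Rab20, chr8:11478641-11478740, minus strand: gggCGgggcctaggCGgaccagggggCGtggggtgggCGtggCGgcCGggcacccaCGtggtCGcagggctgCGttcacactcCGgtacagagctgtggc

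CpG is dense in most of these windows and sparse before Rab17. The printed bases held 12 CpG in Rab5a, 13 in Rab1b, 10 in Rab20, 6 in Rab11a, 4 in Rab25 and 2 in Rab17. The window of Rab17 depends on the start chosen, since the GENCODE gene begins further upstream, at position 90969661. Windows of 300 bases (250 before and 50 after the start) were found for 46 of the 55 members and held a median of 21.5 CpG, against 7 over all 32851 windows of the RefSeq table, which counts several starts for some genes and includes genes not found in these libraries. The median was 27 CpG in the 14 members with a mean of at least 10 FPKM, 24.5 in the 18 members from 1 to 10 FPKM, and 15.5 in the 14 members under 1 FPKM. The letters CACGTG, which read the same on both strands, occurred in 5 of 46 windows (10.9%), against 7.15% of all windows. Those 5 were Rab5a, Rab20, Rab21, Rab23 and Rab24. The letters TATAAA, searched on both strands, occurred in 4 windows (8.70%), against 13.6% of all windows: those of Rab7, Rab3b, Rab39b and Rab42.

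Blastocysts held most of the Rab set. Of the 55 members, 45 were above 0 FPKM in all 8 libraries, and none was at 0 in all of them. The mean over all libraries was at least 50 FPKM in 9 members, 10 to 50 in 8, 1 to 10 in 20 and under 1 in 18. Rab1b had the highest mean, 198 FPKM. It was followed by Rab20 (155 FPKM), a Rab of phagosomes and endosomes, and by Rab2a (131 FPKM), which acts between the endoplasmic reticulum and the Golgi. Rab5a (94.0), Rab18 (93.9), a Rab of the endoplasmic reticulum and lipid droplets, and Rab11a (92.8) lay within 2 FPKM of each other, and their libraries overlapped. Rab8a (64.3), which acts in polarised exocytosis, Rab7 (56.9) and Rab1a (53.1) completed the 9. Rab20 exceeded Rab1b in melatonin replicates 1 and 3 but not in the other 6 libraries. The 5 most abundant members held 52.6% to 58.8% of the summed Rab FPKM. The summed FPKM of all members was 1259 ± 72.02 in melatonin, 1222 ± 66.2 in vitrified (SD, n = 3 each) and 1219 ± 10.8 in fresh libraries (SD, n = 2), with overlapping ranges.

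**Figure D1:**
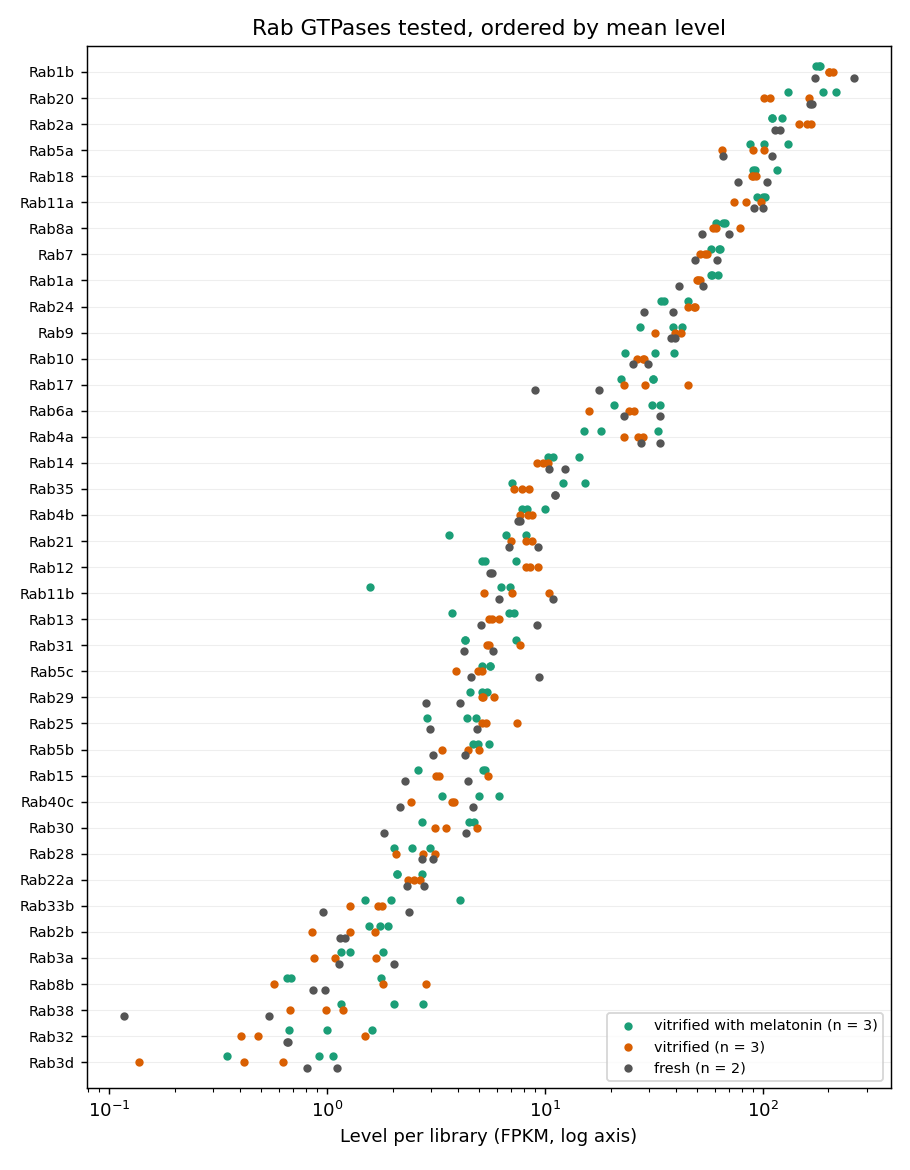
Level in FPKM (log axis) of the 39 members tested, 1 row per gene ordered by mean, with 1 point per library for melatonin (n = 3), vitrified (n = 3) and fresh blastocysts (n = 2). Rab1b is at the top with a mean of 198 FPKM, and for most genes the points of the 3 groups lie among each other.

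Within families of near relatives, 1 paralogue usually supplied most of the signal. Rab2a made up 98.3% to 99.5% of Rab2, Rab6a 97.0% to 98.3% of Rab6, Rab8a 95.5% to 99.3% of Rab8 and Rab7 at least 99.9% of Rab7 and Rab7b together. Rab5a made up 84.1% to 92.5% of the 3 Rab5 genes, and Rab1b 74.3% to 86.3% of Rab1. The split was more even in Rab4, which acts in fast endosomal recycling, where Rab4a held 60.2% to 81.8%, and in Rab3, where Rab3a held 48.6% to 80.4%. Those Rab3 shares are of small sums: Rab3a lay between 0.874 and 2.03 FPKM, Rab3d between 0.136 and 1.11 FPKM and Rab3b between 0 and 0.275 FPKM.

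Rab11 needs a separate reading. Rab11a made up 84.1% to 93.6% of Rab11a, Rab11b and Rab25 as listed. However, the table also lists Rab11b-ps2, a processed pseudogene that is 99.8% identical to Rab11b over 654 bases, at 74.4 to 91.9 FPKM, whereas Rab11b itself is listed at 1.58 to 10.9 FPKM. How the authors' counting assigned reads shared by both is not given in the sources used here, so the level of Rab11b is uncertain. With the FPKM of the pseudogene added to that of Rab11b, the sum came to 78.7 to 102 FPKM and the share of Rab11a to 43.7% to 52.9%. Each FPKM is scaled by the length of its own gene, and the longest Rab11b transcript has 6109 bases. The sum is therefore not the level Rab11b would have if it received those reads, and that level was not computed. A milder case is Rab9, a Rab of late endosome to Golgi traffic, at 27.4 to 42.7 FPKM. The pseudogene Rab9b-ps1 is 96.9% identical to it over 606 bases and lay at 3.41 to 11.9 FPKM.

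**Figure D2:**
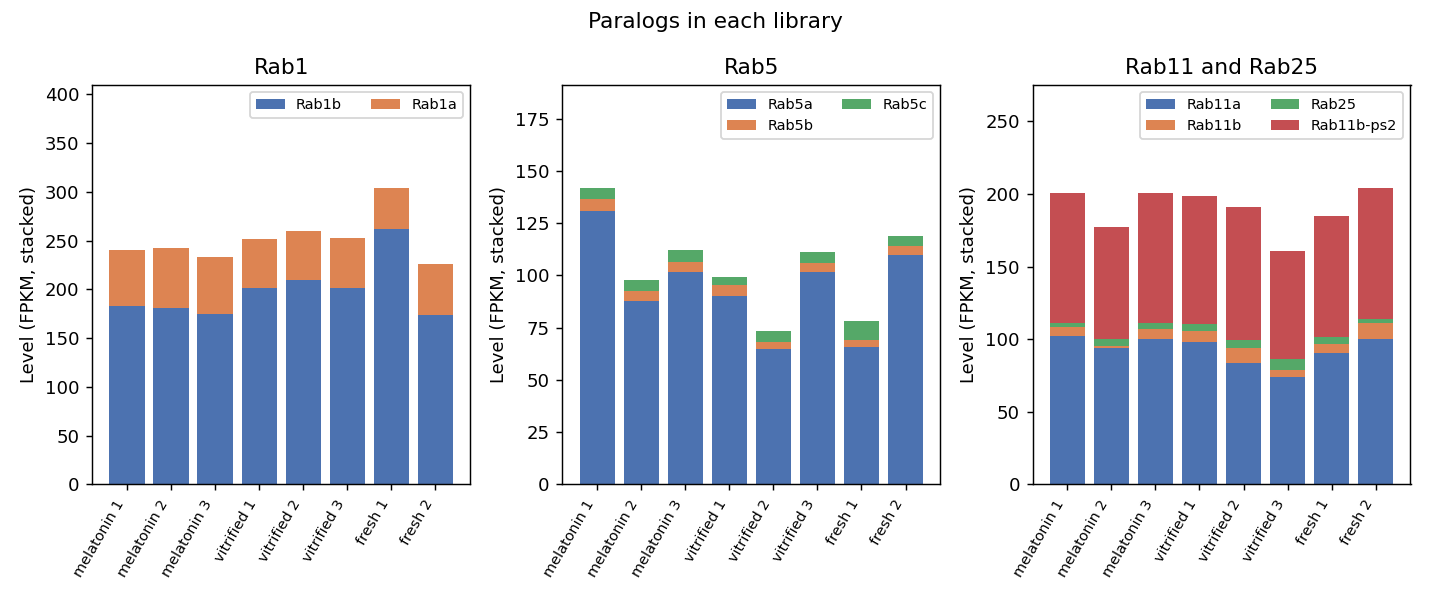
Level in FPKM in each library, stacked by paralogue, for Rab1, for Rab5, and for Rab11 with Rab25 and the pseudogene Rab11b-ps2. Libraries are ordered melatonin, vitrified, fresh. Rab1b makes up 74.3% to 86.3% of Rab1, and Rab5a 84.1% to 92.5% of Rab5. In the last panel Rab11a and Rab11b-ps2 (74.4 to 91.9 FPKM) are the largest parts.

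Differences between groups were tested with limma on log2(FPKM + 1) over all genes that reached 1 FPKM in at least 2 libraries, 10755 genes, of which 39 were members. The other 16 members were too low to be tested and reached at most 0.958 FPKM, in Rab42: Rab3b, Rab6b, Rab7b, Rab19, Rab23, Rab26, Rab27a, Rab33a, Rab34, Rab36, Rab37, Rab39, Rab39b, Rab40b, Rab42 and Rab43. Fold changes are therefore differences of mean log2(FPKM + 1), which understate changes of low genes. No member passed a Benjamini-Hochberg adjusted p of 0.05 in any comparison. Among all tested genes, 15 (0.139%) passed between melatonin and vitrified, 93 (0.865%) between vitrified and fresh, and 0 (0%) between melatonin and fresh blastocysts. At an unadjusted limma p below 0.05 the members numbered 4, 5 and 2 in these comparisons, that is 10.3%, 12.8% and 5.13% of 39, against 14.8%, 20.2% and 18.5% of all tested genes. All 3 shares of members were below those of all genes.

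Melatonin against vitrified blastocysts asks what the additive did within vitrification. The median log2 fold change was 0.10 over the 39 members and -0.05 over all tested genes. On the higher side were 22 of 39 members, against 4706 of 10755 tested genes. The groups did not overlap in 6 members (15.4%), against 24.7% of all tested genes. Rab1a and Rab7 lay higher with melatonin (5.13% of members, 9.30% of all genes), and Rab2a, Rab12, Rab25 and Rab1b lay lower (10.3% of members, 15.4% of all genes). For 32 members the 95% interval stayed within 2-fold either way (82.1%), against 75.2% of all tested genes.

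Vitrified against fresh blastocysts asks what vitrification did without the additive. The median was 0.02 over members and 0.14 over all tested genes. Of 39 members, 21 were on the higher side, against 6828 of 10755 tested genes. Scaling by median ratios moved the median of all genes to -0.02 and that of the members to -0.16, so members lay below the bulk of genes under both. The groups did not overlap in 11 members (28.2%), against 37.0% of all tested genes. Rab17, Rab2a, Rab12, Rab24, Rab29, Rab25 and Rab38 lay higher in vitrified blastocysts (17.9% of members, 26.4% of all genes), and Rab14, Rab20, Rab35 and Rab3d lay lower (10.3% of members, 10.6% of all genes). The interval stayed within 2-fold for 29 members (74.4%), against 62.0% of all tested genes.

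Melatonin against fresh blastocysts compares the full procedure with its unfrozen control. The median was 0.05 over members and 0.09 over all tested genes, and with median ratio scaling that of the members was -0.05. Groups did not overlap in 8 members (20.5%), against 34.3% of all tested genes, and all 8 lay higher with melatonin: Rab17, Rab38, Rab1a, Rab29, Rab2b, Rab32, Rab4b and Rab5b (20.8% of all genes lay higher and 13.5% lower). The interval stayed within 2-fold for 30 members (76.9%), against 64.0% of all tested genes. The comparisons share libraries in pairs, so a low or high group enters 2 of them.

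**Figure D3:**
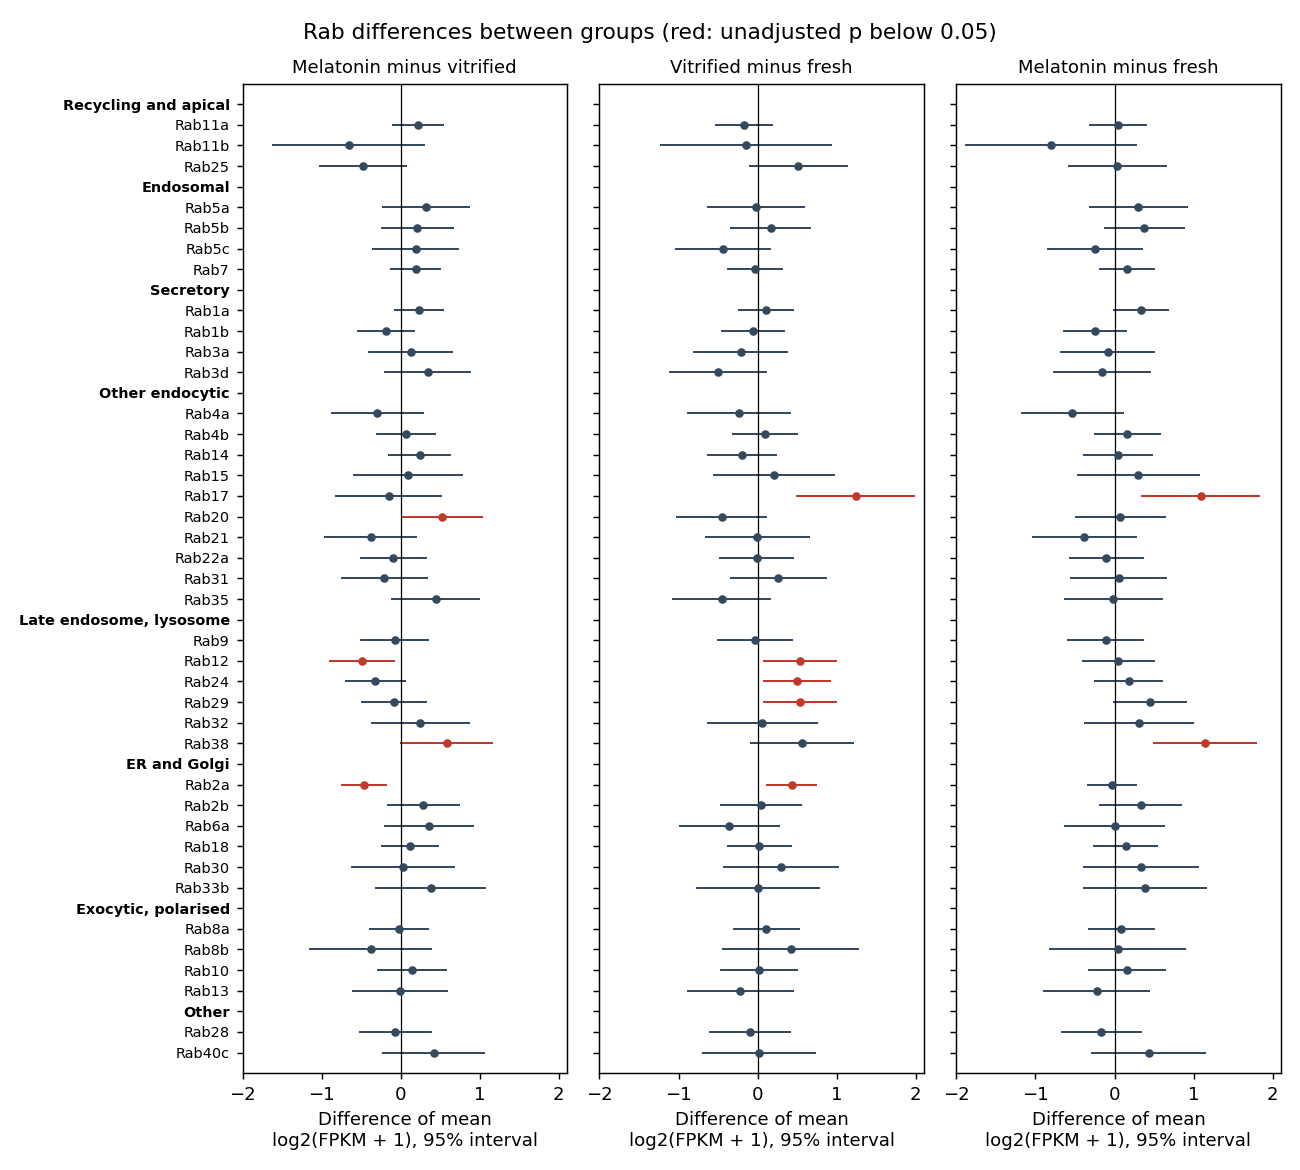
Log2 fold change of FPKM + 1 with its 95% interval for all 39 tested members, grouped by class, 1 panel per comparison. Red marks an unadjusted limma p below 0.05. Most intervals cross 0; Rab17 in vitrified minus fresh (1.24) and Rab38 in melatonin minus fresh (1.14) lie farthest to the right.

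Among the recycling and apical members, Rab11a, which carries cargo through recycling endosomes to the apical surface, had 102, 93.8 and 99.96 FPKM in melatonin libraries, against 98.3, 83.5 and 73.7 FPKM in vitrified libraries and 90.8 and 100.2 FPKM in fresh libraries. The groups overlapped. Its log2 fold change was 0.22 ± 0.14 (SE, 95% interval -0.10 to 0.54) for melatonin over vitrified and -0.17 ± 0.16 (-0.53 to 0.18) for vitrified over fresh, and neither passed (limma adjusted p 0.491 and 0.577). With Y-linked expression as a covariate, where vitrified replicate 1 is the sole vitrified library set against the other groups, they were 0.0048 and 0.04, and without vitrified replicate 3 they were 0.12 and -0.07. Rab25, an epithelial relative of Rab11, had 2.88, 4.84 and 4.40 FPKM in melatonin libraries, against 5.17, 5.34 and 7.43 FPKM in vitrified libraries and 4.90 and 2.96 FPKM in fresh libraries. Each vitrified library lay above every library of the other groups. The fold change was -0.48 ± 0.24 for melatonin over vitrified and 0.52 ± 0.27 for vitrified over fresh, which did not pass (limma adjusted p 0.391 and 0.318). The first was -0.30 without melatonin replicate 1, and the second was 0.80 without fresh replicate 1 and 0.23 without fresh replicate 2. Rab11b, uncertain as described, spread most, with 6.26, 1.58 and 6.89 FPKM in melatonin, 7.08, 10.4 and 5.26 FPKM in vitrified and 6.12 and 10.9 FPKM in fresh libraries. The fold changes of Rab11b-ps2 were 0.01, -0.03 and -0.02 in the 3 comparisons.

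Endosomal members were led by Rab5a, which drives fusion of early endosomes. It had 131, 87.7 and 102 FPKM in melatonin libraries, against 90.2, 64.7 and 102 FPKM in vitrified libraries and 65.9 and 109.9 FPKM in fresh libraries. The spread within each group was as wide as the gaps between groups, and the fold change of 0.32 ± 0.24 for melatonin over vitrified did not pass (limma adjusted p 0.557) and was 0.17 without melatonin replicate 1 and 0.14 without vitrified replicate 2. Rab7, which governs traffic to lysosomes, was tight, with 57.8, 62.7 and 63.3 FPKM in melatonin libraries, against 51.4, 55.4 and 54.0 FPKM in vitrified libraries and 48.9 and 61.7 FPKM in fresh libraries. All melatonin values exceeded all vitrified ones, by a log2 fold change of 0.19 ± 0.14 that did not pass (-0.12 to 0.49, limma adjusted p 0.543). Rab5b and Rab5c lay between 3.06 and 9.39 FPKM in all libraries. Rab7b, at most 0.0380 FPKM, was not tested.

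The secretory class was almost wholly Rab1. Rab1b had 182, 180.4 and 175 FPKM in melatonin libraries, against 201, 209.9 and 201 FPKM in vitrified libraries and 262 and 173 FPKM in fresh libraries. The fresh libraries spanned all the others. Rab1a had 58.0, 62.4 and 58.3 FPKM in melatonin libraries, against 50.6, 50.05 and 51.4 FPKM in vitrified libraries and 41.4 and 52.9 FPKM in fresh libraries. The Rab1 genes thus differed in opposite directions between melatonin and vitrified libraries without overlap, Rab1a by 0.23 ± 0.14 and Rab1b by -0.19 ± 0.16, and neither passed (limma adjusted p 0.456 and 0.607). Rab1a was 0.34 ± 0.15 higher in melatonin than in fresh libraries and did not pass (limma adjusted p 0.273), with 0.17 without fresh replicate 1 and 0.51 without fresh replicate 2. The Rabs of regulated secretion were low: Rab27a, which docks secretory lysosomes and granules, lay at 0.0522 to 0.536 FPKM and was not tested.

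Compared as classes, the medians of the log2 fold changes for melatonin over vitrified were -0.48 in recycling and apical members (3 tested), 0.20 in endosomal members (4) and 0.18 in secretory members (4), against -0.05 over all tested genes. For vitrified over fresh they were -0.14, -0.03 and -0.14, against 0.14. The recycling and apical median for melatonin over vitrified is that of Rab25, since the 2 Rab11 genes lay on either side of it, and it moves with the libraries left out as given for that gene. It also depends on Rab11b, at -0.66, whose level is uncertain as described. The recycling and apical median for vitrified over fresh is the value of Rab11b itself, with the same limit. The summed levels give another picture, because Rab11a dominates its class. Recycling and apical members summed to 108 ± 6.42 FPKM in melatonin and 98.7 ± 12.1 FPKM in vitrified libraries (SD, n = 3 each), and 108 ± 8.64 FPKM in fresh libraries (SD, n = 2). Endosomal members summed to 178 ± 19.5 FPKM in melatonin, 148 ± 18.3 FPKM in vitrified and 154 ± 37.7 FPKM in fresh libraries. Secretory members summed to 241 ± 5.29 FPKM in melatonin, 257 ± 4.51 FPKM in vitrified and 267 ± 55.03 FPKM in fresh libraries. Melatonin and vitrified libraries did not overlap in the secretory sum, and the fresh libraries overlapped both in all 3 classes.

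Outside these classes, Rab17, an epithelial Rab of apical recycling and transcytosis on chromosome 1, differed most between vitrified and fresh blastocysts. It had 31.3, 22.3 and 31.4 FPKM in melatonin libraries, against 45.5, 23.1 and 28.9 FPKM in vitrified libraries and 8.98 and 17.7 FPKM in fresh libraries. Both fresh libraries lay below all 6 others. The log2 fold change was 1.24 ± 0.33 (SE, 0.50 to 1.98) for vitrified over fresh and 1.09 ± 0.33 for melatonin over fresh, and neither passed (limma adjusted p 0.0837 and 0.165). Without fresh replicate 2, leaving a single fresh library whose spread is assumed to equal that of the other groups, the values were 1.69 and 1.54 and both passed (limma adjusted p 0.0408 and 0.0479), whereas without fresh replicate 1 they were 0.79 and 0.64 and did not. Over all 19 alternatives the adjusted p ranged from 0.0408 to 0.318 for vitrified over fresh and from 0.0479 to 0.561 for melatonin over fresh. The summed level of the 5 epiblast markers was also lowest in the fresh libraries, though Pou5f1, Sox2 and Fgf4 in fresh replicate 2 lay within the range of the melatonin and vitrified libraries, and their part in this result was not tested.

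Rab2a and Rab12 had the same profile as Rab25, with vitrified libraries above both other groups. Rab2a had 109.9, 123 and 110.0 FPKM in melatonin libraries, against 160.1, 147 and 166 FPKM in vitrified libraries and 119.8 and 114 FPKM in fresh libraries. The vitrified libraries stood clear of all 5 others. Its log2 fold change was -0.46 ± 0.12 (-0.74 to -0.19) for melatonin over vitrified and 0.43 ± 0.14 (0.12 to 0.74) for vitrified over fresh, and neither passed (limma adjusted p 0.172 and 0.124). With library weights the melatonin difference was -0.50 and passed (limma adjusted p 0.0435, the lowest of the 19 alternatives). With Y-linked expression as a covariate, which sets vitrified replicate 1 alone against the other groups, the limma adjusted p was 0.897, the highest. Over all 19 alternatives the fold change for melatonin over vitrified stayed between -0.52 and -0.39. Rab12, which acts in lysosomal and retrograde traffic, had 5.32, 5.15 and 7.40 FPKM in melatonin libraries, against 8.51, 8.17 and 9.32 FPKM in vitrified libraries and 5.73 and 5.59 FPKM in fresh libraries. Its vitrified libraries were again the 3 highest, with fold changes of -0.49 ± 0.18 and 0.54 ± 0.20 (limma adjusted p 0.268 and 0.180).

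Rab20 was lowest in 2 of the 3 vitrified libraries. It had 217, 131 and 188 FPKM in melatonin libraries, against 162, 102 and 108 FPKM in vitrified libraries and 169 and 164 FPKM in fresh libraries. Vitrified and fresh libraries did not overlap, while melatonin replicate 2 lay among the vitrified ones. The log2 fold change was 0.52 ± 0.22 for melatonin over vitrified and -0.45 ± 0.25 for vitrified over fresh, and neither passed (limma adjusted p 0.319 and 0.339). The low vitrified values were those of replicates 2 and 3, the libraries without Y-linked transcripts. With Y-linked expression as a covariate, which sets vitrified replicate 1 alone against the other groups, the fold changes were 0.11 and -0.04. Embryo sex and differences between vitrified replicates cannot be told apart here, and a part of either was not tested. Rab38, a Rab of melanosomes and other lysosome-related organelles, was low throughout, with 2.76, 1.16 and 2.02 FPKM in melatonin libraries, against 0.678, 1.19 and 0.994 FPKM in vitrified libraries and 0.544 and 0.117 FPKM in fresh libraries. Its order ran from fresh to vitrified to melatonin, with overlap between the melatonin and vitrified libraries alone. The fold change of 1.14 ± 0.29 for melatonin over fresh did not pass (limma adjusted p 0.141).

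Rab29, which acts at the Golgi and lysosomes, and Rab24, linked to autophagy, were each higher in vitrified than in fresh libraries without overlap. Rab29 averaged 5.40 ± 0.381 FPKM in vitrified (SD, n = 3) and 3.46 ± 0.854 FPKM in fresh libraries (SD, n = 2), a log2 fold change of 0.53 ± 0.20 that did not pass (limma adjusted p 0.186) and was 0.34 without fresh replicate 2. Rab24 averaged 47.4 ± 1.86 FPKM in vitrified and 33.6 ± 7.20 FPKM in fresh libraries, a log2 fold change of 0.50 ± 0.19 that did not pass (limma adjusted p 0.182) and was 0.28 without fresh replicate 1. Rab24 shares 1258 of its 2015 exon bases with Prelid1 on the opposite strand, which lay at 388 to 798 FPKM, and the use of strand in counting is not given in the sources used here, so reads of the 2 genes cannot be told apart.

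**Figure D4:**
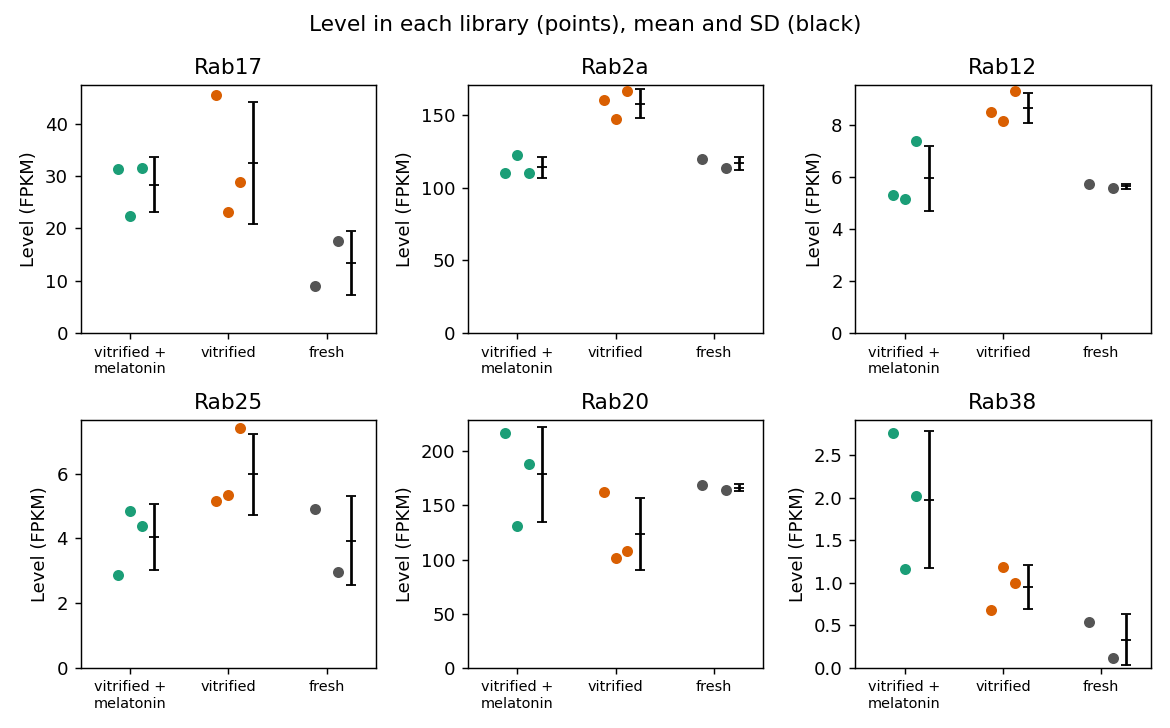
Level in FPKM per library (points) with mean and SD (black) for Rab17, Rab2a, Rab12, Rab25, Rab20 and Rab38, groups ordered melatonin, vitrified, fresh. Rab17 is lowest in the fresh libraries (8.98 and 17.7 FPKM), and in Rab2a, Rab12 and Rab25 the vitrified libraries are the highest.

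Rab18, Rab8a and Rab9 were abundant members whose groups overlapped in every comparison. Rab18 averaged 99.3 ± 15.1 FPKM in melatonin, 90.8 ± 1.88 FPKM in vitrified (SD, n = 3 each) and 90.4 ± 19.5 FPKM in fresh libraries (SD, n = 2). Rab8a averaged 64.5 ± 3.20, 66.1 ± 10.8 and 61.2 ± 12.1 FPKM in the same order. For melatonin over vitrified the 95% interval ran from -0.24 to 0.48 for Rab18, -0.39 to 0.34 for Rab8a and -0.50 to 0.34 for the X-linked Rab9. Rab4a had 32.9, 15.1 and 18.1 FPKM in melatonin libraries, against 28.1, 26.6 and 23.0 FPKM in vitrified libraries and 33.8 and 27.7 FPKM in fresh libraries. The groups overlapped, and the log2 fold change of -0.53 ± 0.29 for melatonin over fresh did not pass (limma adjusted p 0.351) and was -0.85 without melatonin replicate 1 and -0.31 without melatonin replicate 2. Rab2b averaged 1.73 ± 0.176 FPKM in melatonin, 1.26 ± 0.400 FPKM in vitrified (SD, n = 3 each) and 1.17 ± 0.0448 FPKM in fresh libraries (SD, n = 2), and its log2 fold change of 0.33 ± 0.23 for melatonin over fresh did not pass (limma adjusted p 0.463). Its exons overlap Gm43766 on the opposite strand. The remaining 16 tested members not given with values of their own spanned 0.405 FPKM (Rab32) to 39.0 FPKM (Rab10). Their log2 fold changes ran from -0.38 to 0.44 for melatonin over vitrified, from -0.46 to 0.42 for vitrified over fresh and from -0.38 to 0.43 for melatonin over fresh. The other X-linked members, Rab33a and Rab39b, did not exceed 0.441 and 0.2001 FPKM.

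The proteins that load, switch off, extract and use Rabs were listed as 115 genes in 7 lists, of which 112 were in the table and 82 were tested. By limma, 0 of the 82 passed in each comparison. At an unadjusted limma p below 0.05, 5 were higher and 6 lower with melatonin than in vitrified libraries, against 4.59% and 10.2% of all tested genes. In vitrified against fresh libraries 18 were higher and 2 lower, against 15.6% and 4.56% of all genes, and in melatonin against fresh libraries 14 were higher and 1 lower, against 11.6% and 6.82% of all genes. The medians over the 82 were 0.04, 0.24 and 0.24, against -0.05, 0.14 and 0.09 over all tested genes. For vitrified over fresh, the exocyst, the complex that tethers exocytic vesicles and binds active Rab11 through Exoc6, had the highest list median, 0.48. On the higher side were 8 of 9 exocyst genes, 16 of 17 endosomal effectors and tethers, and 6828 of all 10755 tested genes. None of the secretory effectors, 8 of 11 of which were in the table, reached the level for testing.

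Rabgef1, the exchange factor for Rab5 also called Rabex-5, stood closest to the threshold. It had 5.91, 7.54 and 7.12 FPKM in melatonin libraries, against 3.59, 3.19 and 3.56 FPKM in vitrified libraries and 6.10 and 7.60 FPKM in fresh libraries. The vitrified libraries lay below all 5 others, by a log2 fold change of 0.82 ± 0.18 for melatonin over vitrified and -0.82 ± 0.20 for vitrified over fresh, and neither passed (limma adjusted p 0.114 and 0.0697). Exoc4, an exocyst subunit, averaged 2.46 ± 0.304 FPKM in melatonin and 3.86 ± 0.307 FPKM in vitrified libraries (SD, n = 3 each), and 1.54 ± 0.770 FPKM in fresh libraries (SD, n = 2). Its fold change of 0.97 ± 0.24 for vitrified over fresh did not pass (limma adjusted p 0.0725). Mon1b, part of the exchange factor for Rab7, averaged 5.78 ± 1.77 FPKM in melatonin and 5.08 ± 1.52 FPKM in vitrified libraries, and 2.07 ± 0.185 FPKM in fresh libraries, with a fold change of 1.11 ± 0.29 for melatonin over fresh that did not pass (limma adjusted p 0.143). Vps11 and Vps33a, subunits of the tethers that act with Rab5 and Rab7, were 0.83 ± 0.21 and 0.74 ± 0.17 higher in melatonin than in fresh libraries and did not pass (limma adjusted p 0.141 and 0.134).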

How the data were processed

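The authors deposited 1 table of FPKM per gene and library, on mm10 per the submitters' processing notes. No source used here states the aligner, counter, annotation, filters or strand setting. Groups and replicate numbers came from the biosample descriptions, and every numeric column was mapped to a sample. Gene positions came from GENCODE M21 and start regions from RefSeq, both on GRCm38. limma 3.58.1 in R 4.3.3 fitted log2(FPKM + 1) in all 8 libraries with a variance trend. Genes needed 1 FPKM in 2 libraries, and p-values were two-sided and, per comparison, Benjamini-Hochberg adjusted across the 10755 tested genes. Copies were sought among transcripts in the table at 95% identity over 200 bases. The 3 members with copies elsewhere were Rab11b, Rab9 and Rab33b. Rab33b matched many other genes over about 200 bases, so its level is also uncertain. Python 3.11.15, pandas 2.3.3 and matplotlib 3.10.9 handled tables and figures. The fit was also run on simulated data, and the outcome is not reported here. Depth was estimated from multiples of 1 fragment: 93.8% to 95.8% of low values lay within 0.1 of a whole number. Members and lists were chosen with earlier results of these data known. Values were given for every recycling, endosomal and secretory member, for the 5 smallest p per comparison and 5 highest levels among the others, for X-linked members, and for some of the 2 partners per list with the smallest p, 1 of which is not reported here. 11 alternative settings were run, and each of 8 libraries was left out in turn.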

Additional observations from a re-analysis of the deposited data

How the results depend on the processing

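The number of Rab members past the threshold was 0 in each comparison under most of the 19 alternatives, with 3 exceptions: with library weights 1 member (Rab2a, lower) passed between melatonin and vitrified, and without fresh replicate 2 1 member (Rab17, higher) passed between vitrified and fresh and between melatonin and fresh. Leaving out each library gave 0 members for melatonin against vitrified and 0 to 1 for the others; the causes were not tested. Deviations of same-numbered libraries from their group means correlated at -0.115 to 0.121 over 7 pairs by biosample number. By title number the correlations were -0.115 to 0.0392 over 4 pairs. With so few libraries per group, these values cannot show whether same-numbered libraries share a batch or a pairing, which the labels do not state. With the replicate number as a block, 0 members passed in every comparison under either numbering. All genes called then numbered 1, 1 and 0 by biosample number and 0, 39 and 44 by title number. Over all alternatives the genes called ranged from 0 to 233 for melatonin against vitrified, from 1 to 433 for vitrified against fresh and from 0 to 565 for melatonin against fresh, against 15, 93 and 0 as reported; the count of 233 came with library weights, and those of 433 and 565 without fresh replicate 2. Of 1281 recomputed fold changes of the 23 named members tested, 73 changed sign, none of a member past the threshold, and the largest that did was 0.435 as first fitted. Depth (5815000 to 9996500 fragments) and the 2 fresh libraries limit precision: the median SE of a member's log2 fold change was 0.23 for melatonin against vitrified and 0.26 for the comparisons with fresh libraries.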
